A study of Mus musculus with 12 samples.

Results

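Genomic imprinting leaves 1 parental copy of a gene active and the other silent, through DNA methylation that differs between egg and sperm and is kept in the cells of the offspring. Many imprinted genes act on growth of the fetus and on the brain, and several of them are strongly transcribed in neurons and in dividing precursors around birth. The 10 imprinted genes Peg3, Ndn, Magel2, Mest, Dlk1, Cdkn1c, Plagl1, Grb10, Peg10 and Ube3a were examined here in the brains of newborn mice, and their probesets were taken by gene symbol. Of these, 8 were found among the 17279 genes measured, with 106 probesets out of 221417. Mest and Peg10 matched no symbol and were not analysed here.

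The study compared brains of neonates that lack the kinase KIS, encoded by Uhmk1, with brains of their wildtype littermates. The wildtype animals carried the genotype KIS +/+ and the KIS-ko animals KIS -/-, and both groups were untreated newborn females on a C57BL6/N background after 10 generations of backcrossing. Each of 6 litters gave 1 pair, which makes 6 wildtype and 6 KIS-ko brains. RNA of each whole brain was hybridized to 1 Affymetrix Mouse Exon 1.0 ST array, which carries short probes along the exons of a gene, grouped into probesets.

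Each gene is given as the average of log2(signal + 16) across its probesets, and differences are given as KIS-ko minus wildtype on that scale. Array medians lay between 459.9 and 525.9 signal units, and the median of the KIS-ko array was below that of its littermate in 5 of 6 litters. Over all 6 litters its difference was -0.058 ± 0.093 on the log2 scale (mean ± SD). All 7 neuronal markers measured were above the background of the intron controls (95th percentile 713.3), whereas none of 12 hypothalamic and none of 6 pituitary markers were (median over the probesets of a gene). Also above it were 4 of 6 progenitor, 1 of 6 proliferation, 4 of 8 meningeal, 2 of 7 choroid plexus, 4 of 8 endothelial and pericyte, and 2 of 6 erythroid markers. No marker of any cell type passed the adjusted threshold for genotype (limma). The median difference was -0.03 for neurons, -0.05 for progenitors, -0.12 for proliferation, -0.06 for meninges, 0.00 for choroid plexus, -0.04 for endothelium and pericytes, -0.01 for hypothalamus, and 0.02 for both pituitary and erythroid markers. Uhmk1 itself lay between 10.89 and 11.07 in wildtype brains and between 8.62 and 8.98 in KIS-ko brains, and fell in all 6 litters (-2.11, SE 0.0681, adjusted p = 2.91e-07, limma). In whole brain, fewer cells of a type cannot be told apart from less RNA per cell, and the total level of an imprinted gene cannot tell its parental copies apart.

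Of the genes measured, 5 sit on chromosome 7, at positions given as the array table lists them, without a named build. Ndn and Magel2 are neighbours, 29.9 kb apart on the plus strand, and Ube3a lies 2930 kb before Ndn. None of the imprinted genes is on chromosome 1, which holds Uhmk1. Promoter sequences of all measured genes but Cdkn1c came from RefSeq (GRCm38.p6), as windows of 300 bases around a start. Methylation of CpG dinucleotides is the mark by which imprinting works, so the promoters of the Ndn and Magel2 neighbours are shown. Both starts of Grb10, a gene with separate promoters whose probesets are described below, are shown too. CpG dinucleotides are in capitals.
Ndn, chr7:62348027-62348326, plus strand: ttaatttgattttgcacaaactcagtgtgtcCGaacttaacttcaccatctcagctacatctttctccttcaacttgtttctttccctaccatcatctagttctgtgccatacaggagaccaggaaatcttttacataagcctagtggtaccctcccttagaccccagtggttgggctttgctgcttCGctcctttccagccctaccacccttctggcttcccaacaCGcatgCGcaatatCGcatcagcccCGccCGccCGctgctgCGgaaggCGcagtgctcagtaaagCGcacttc
Magel2, chr7:62376729-62377028, plus strand: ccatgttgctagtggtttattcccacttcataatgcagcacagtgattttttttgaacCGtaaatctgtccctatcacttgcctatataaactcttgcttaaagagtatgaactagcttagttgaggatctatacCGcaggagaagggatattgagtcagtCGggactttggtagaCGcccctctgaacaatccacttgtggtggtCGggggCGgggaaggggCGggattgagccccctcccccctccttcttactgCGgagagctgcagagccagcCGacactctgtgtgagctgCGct
Grb10, upstream start, chr11:12037371-12037670, minus strand: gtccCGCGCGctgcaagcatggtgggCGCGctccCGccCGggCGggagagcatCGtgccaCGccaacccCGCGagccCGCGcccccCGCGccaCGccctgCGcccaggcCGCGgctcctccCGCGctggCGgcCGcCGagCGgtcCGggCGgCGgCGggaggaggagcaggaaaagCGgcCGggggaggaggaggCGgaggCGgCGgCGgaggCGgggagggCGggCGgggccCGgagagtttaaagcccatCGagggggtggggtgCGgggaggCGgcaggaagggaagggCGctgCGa
Grb10, downstream start, chr11:12027922-12028221, minus strand: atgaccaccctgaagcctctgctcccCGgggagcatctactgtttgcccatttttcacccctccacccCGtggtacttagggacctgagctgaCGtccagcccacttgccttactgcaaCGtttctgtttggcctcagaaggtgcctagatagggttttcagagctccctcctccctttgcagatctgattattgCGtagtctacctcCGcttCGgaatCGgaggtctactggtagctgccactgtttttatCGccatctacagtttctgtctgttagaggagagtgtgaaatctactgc
The upstream Grb10 promoter held 45 CpG dinucleotides in 300 bases, and 1.93% of the 32851 promoters of this length held as many. The downstream one held 9, near the median of 7 over all promoters. Ndn and Magel2 held 11 and 10, Peg3 13, Dlk1 9, Plagl1 26 and Ube3a 29. The letters CCATNTT, a core recognized by the factor YY1, which binds repeatedly within the Peg3 control region, were searched on both strands. They occurred 1 time each in the promoters of Magel2, Ube3a and the downstream start of Grb10, and in none of the promoters of Peg3, Ndn, Dlk1, Plagl1 and the upstream start of Grb10, while 16.1% of all promoters held them. A window of 300 bases around a start does not answer for the rest of the Peg3 control region.

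None of the 8 imprinted genes passed the test for a difference between KIS-ko and wildtype brains. The share of all genes called at an adjusted p under 0.05 was 0.00579%, which is Uhmk1 alone. At an unadjusted p under 0.05, limma also found 0 of 8, against 6.16% of all genes, and the paired t-test that the methods use for Q-PCR found 0 of 8, against 4.35% of all genes. The sign was negative for 6 of 8 genes, against 69.8% of all genes. Their median difference was -0.03, against -0.04 over all genes.

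Ndn encodes necdin, a growth-restraining protein of postmitotic neurons that is made from the paternal copy (chromosome 7, 69493311 to 69494763). Its values were 12.71, 12.82 and 12.91 (lowest, median, highest) in wildtype and 12.70, 12.78 and 12.94 in KIS-ko brains. The groups covered each other almost fully, and the difference was -0.03 (SE 0.0611, adjusted p = 0.847, limma, lower in 4 of 6 litters). Both probesets were far above background, at 6350 and 8010 signal units.

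Magel2, a paternally expressed relative of Ndn that acts in ubiquitination and protein recycling, spanned 69524660 to 69526380 on chromosome 7 and had 3 probesets, 2 of them above the control limit. Wildtype values were 9.16, 9.44 and 9.64 and KIS-ko values 9.02, 9.38 and 9.65. This was the gene with the widest spread among the 8, with 0.63 between the lowest and the highest brain, or 1.54-fold. Within litters it differed by 0.34 in favour of KIS-ko in litter 4 and fell by 0.30 in litter 5. Over the litters the difference was -0.06 (SE 0.0785, adjusted p = 0.778, limma). It was -0.14 without litter 4, -0.01 without litter 5, -0.02 without litter 6 and 0.00 with arrays centred on their medians.

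Ube3a codes for the ubiquitin ligase whose loss in neurons causes Angelman syndrome, and neurons use the maternal copy (chromosome 7, 66484147 to 66560288). The wildtype values were 10, 10.12 and 10.19, and the KIS-ko values 9.90, 10.01 and 10.17. The KIS-ko brain had the lower value in 5 litters and the higher one in litter 4, and the groups overlapped. The difference, -0.08, had a 95% interval from -0.21 to 0.05 (SE 0.058, adjusted p = 0.69, limma), and it was -0.02 with arrays centred on their medians and -0.04 after a further quantile normalization. This was the lowest unadjusted p of the 8 genes, 0.2 in the limma fit, and it became 0.0205 (adjusted p = 0.163) without litter 4, where 23.3% of all genes had an unadjusted p under 0.05. Under some settings the lowest p was that of Cdkn1c, which was higher in KIS-ko. This was so with arrays centred (0.0761), after a further quantile normalization (0.0931), without litter 2 (0.0712) and without litter 6 (0.354, all limma).

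Peg3 encodes a paternally expressed zinc finger protein linked to maternal behaviour and to cell survival (chromosome 7, 6660259 to 6683100, minus strand). It stood at 11.72, 11.89 and 11.91 in wildtype and 11.72, 11.84 and 11.94 in KIS-ko brains, and all 16 probesets were above the control limit. Both brains of litter 5 were at 11.72, the lowest values of their groups. The difference was -0.03 (SE 0.0473, adjusted p = 0.82, limma).

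Cdkn1c is the maternally expressed inhibitor of cyclin-dependent kinases that takes precursors out of the cell cycle (chromosome 7, 150644264 to 150646859, minus strand). The 12 brains ran from 9.19, 9.39 and 9.54 in wildtype to 9.20, 9.42 and 9.72 in KIS-ko. The groups overlapped over most of their range, and 4 of 6 litters had the higher value in the KIS-ko brain. The difference was 0.07 (SE 0.0676, 95% interval -0.08 to 0.22, adjusted p = 0.733, limma). It was 0.02 without litter 3, 0.13 without litter 2 and 0.12 with arrays centred on their medians. Only 5 of its 10 probesets exceeded the control limit.

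Dlk1, a paternally expressed membrane protein of the Notch ligand family that acts on stem cell niches, was measured by 11 probesets (chromosome 12, 110691824 to 110698768). Its lowest, median and highest values were 10.54, 10.63 and 10.87 in wildtype and 10.56, 10.68 and 10.82 in KIS-ko brains. The pairs split, with litters 1 and 2 lower and the other litters higher in KIS-ko. The fitted difference was 0.03 (SE 0.0596, adjusted p = 0.873, limma). It was -0.07 with the median over probesets, -0.01 with probesets whose SD exceeded 0.2 of the mean rejected, and 0.08 with arrays centred.

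Plagl1, a paternally expressed zinc finger transcription factor that regulates other imprinted genes, had the most probesets, 24, of which 7 are marked as matching other places too (chromosome 10, 12811582 to 12849461). Wildtype brains gave 10.36, 10.54 and 10.66, and KIS-ko brains 10.42, 10.56 and 10.60. The KIS-ko range lay wholly inside the wildtype range. The difference was -0.01 (SE 0.0562, adjusted p = 0.966, limma).

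Grb10 is an adaptor that dampens signalling from insulin and insulin-like growth factor receptors, transcribed from the maternal copy in most tissues and from the paternal copy in neurons (chromosome 11, 11830751 to 11937390, minus strand). Values of 9.97, 10.11 and 10.29 in wildtype and 9.94, 10.11 and 10.23 in KIS-ko brains gave the same median. The difference was -0.03 (SE 0.0551, adjusted p = 0.858, limma). With 1 litter left out at a time, the difference lay between -0.05 and -0.01 for Peg3, -0.08 and 0.00 for Ndn, -0.13 and -0.05 for Ube3a, -0.01 and 0.06 for Dlk1, -0.05 and 0.02 for Plagl1, and -0.07 and 0.00 for Grb10. Over all 8 genes, the 95% intervals reached at most from 0.85-fold (Magel2) to 1.16-fold (Cdkn1c), which is the precision that 6 pairs gave.

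**Figure D1:**
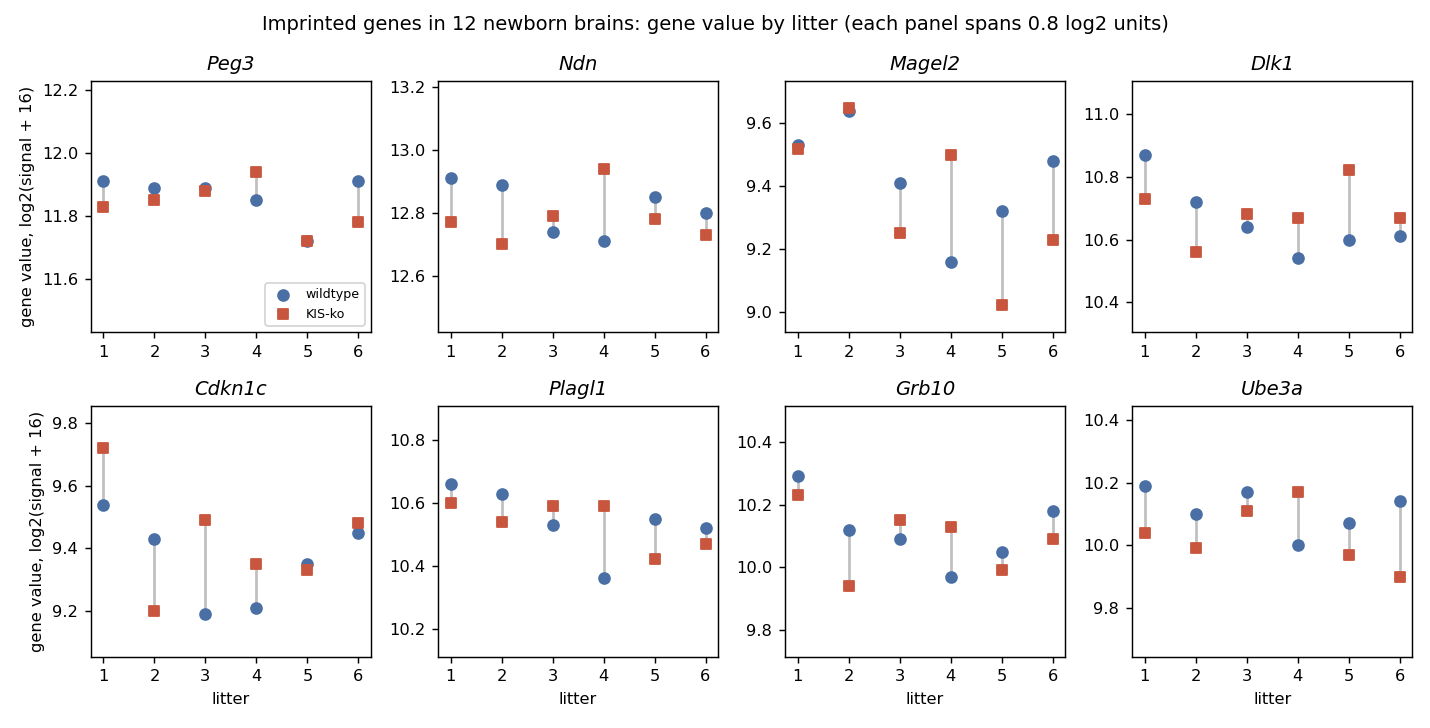
Gene value, log2(signal + 16), of the 8 imprinted genes (vertical axis) by litter (horizontal axis), with circles for wildtype and squares for KIS-ko brains and a line joining littermates. The genotypes overlap in every panel, and in litter 4 all 8 KIS-ko values lie above the wildtype value.

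**Figure D2:**
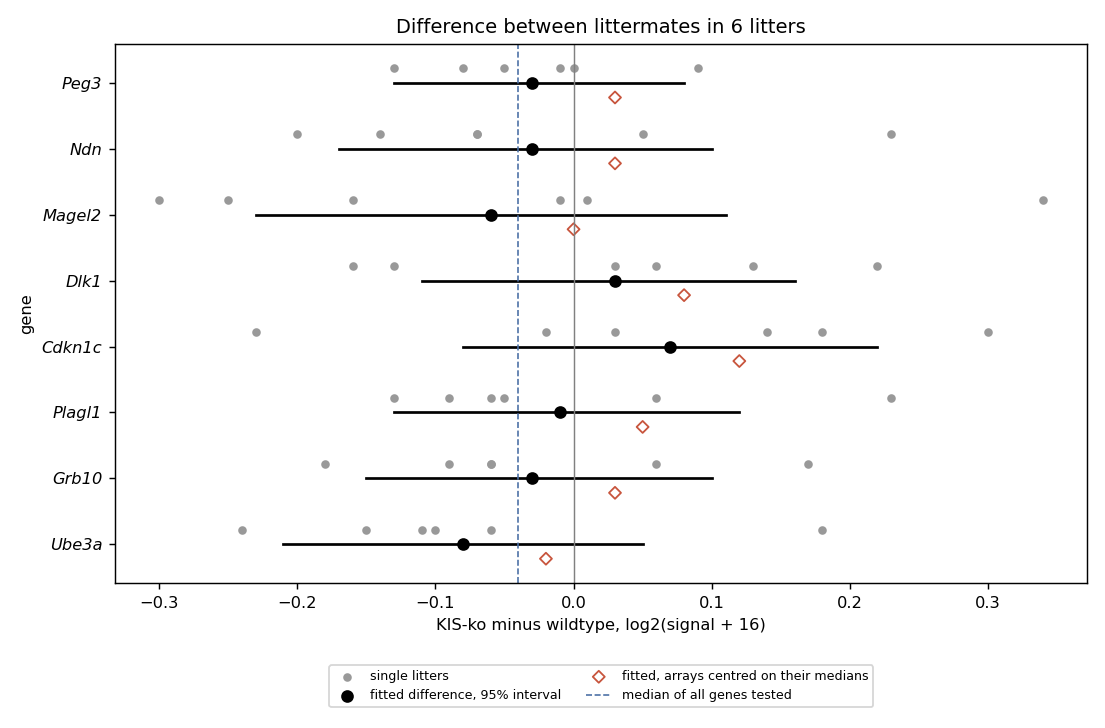
KIS-ko minus wildtype on the log2(signal + 16) scale for the 8 genes, with the fitted difference and its 95% interval in black, the 6 single litters as grey dots and the fit after centring each array on its median as open diamonds. Every interval includes 0, and the diamonds sit to the right of the black points.

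Litter 4 was the only litter in which all 8 genes had the same sign. All were higher in its KIS-ko brain, from 0.09 for Peg3 to 0.34 for Magel2, with a median of 0.17, while 30.3% of all genes were lower there and the median of all genes was 0.07. The KIS-ko array of litter 4 was also the only one whose median exceeded that of its littermate, by 0.098 on the log2 scale. With arrays centred on their medians 7 of 8 were still higher in litter 4, where 56.4% of all genes were then lower, and after a further quantile normalization 8 of 8, with 48.7% of all genes lower. In litters 1, 2, 3, 5 and 6 the number lower in KIS-ko was 7, 7, 3, 6 and 6, against 64.7%, 69.1%, 49.0%, 66.1% and 70.4% of all genes. With arrays centred these counts were 4, 4, 2, 5 and 2, against 42.0%, 40.4%, 39.9%, 54.6% and 37.9% of all genes. Left out, litter 4 moved the median difference of the 8 genes from -0.03 to -0.06, and that of all genes from -0.04 to -0.06. Then 2 of 8 genes had an unadjusted p under 0.05, near the 23.3% of all genes, and none passed the adjusted threshold (limma). The part of the array level in these signs was not tested, but with arrays centred 2 of 8 genes were lower in KIS-ko (median 0.03), against 38.7% of all genes (median 0.02). After a further quantile normalization 4 of 8 were lower (median 0.00), against 48.3% of all genes (median 0.00).

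No effect of litter passed its test. No gene passed the F test of the litter terms at an adjusted p under 0.05, where 0% of all genes did, and none of the 8 did at an unadjusted p under 0.05, against 11.3% of all genes (limma). The unadjusted p ran from 0.0632 for Magel2 to 0.966 for Ndn. Magel2 was high in both brains of litters 1 and 2, at 9.52 to 9.65. Ndn showed the opposite arrangement, since the wildtype brains of litters 1 and 2 were the highest of their group while the KIS-ko brain of litter 2 was the lowest of the 12. The correlation between wildtype and KIS-ko littermates over the 6 litters ran from r = -0.718 for Ndn to 0.524 for Peg3, with rho of -0.714 and -0.143. Over the 8 genes the lowest Benjamini-Hochberg adjusted p of r was 0.622 and that of rho 0.967 (exact permutation test, two-sided). Without the litters farthest from the median, r for Peg3 turned to -0.940.

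No single probeset along the genes passed the test either. Of the 105 probesets kept, 64 were lower in KIS-ko, where 66.2% of all probesets were lower, and 0 passed the adjusted threshold, against 0.00487% of all probesets (limma, lowest adjusted p = 0.751). An unadjusted p under 0.05 was reached by 2 of 105, against 6.63% of all probesets, and both were higher in KIS-ko. One was the first Dlk1 probeset (chromosome 12, 110691824 to 110691858), with signals of 618 to 1070 in wildtype and 831 to 1370 in KIS-ko brains, a difference of 0.34 (SE 0.129). The next Dlk1 probeset, which starts at 110691871, differed by 0.03. The other was the fifth probeset of Cdkn1c, with signals below the control limit throughout, at 299 to 510 in wildtype and 406 to 503 in KIS-ko brains.

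Ube3a was lower over nearly its whole length, in 15 of 16 probesets kept, against 66.2% of all probesets, from -0.19 to -0.02, while its first probeset differed by 0.07, and none passed the test. The probesets of a gene are measured in the same brains and are not independent. One Ube3a probeset, with a mean signal of 12.8, was rejected as too variable. Grb10 divided into 13 probesets lower and 10 higher, within -0.20 to 0.08. Its first probeset read 2310 signal units, the second 348 and the third 66.5. The fourth read 3270, the fifth 685, the sixth 1200, the seventh 1190 and the eighth 134. From the ninth probeset on all mean signals were above the control limit. Peg3 had 12 of 16 probesets lower, Plagl1 12 of 24, Dlk1 5 of 11 and Cdkn1c 2 of 10, and Magel2 and Ndn had all of theirs lower by at most 0.09.

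**Figure D3:**
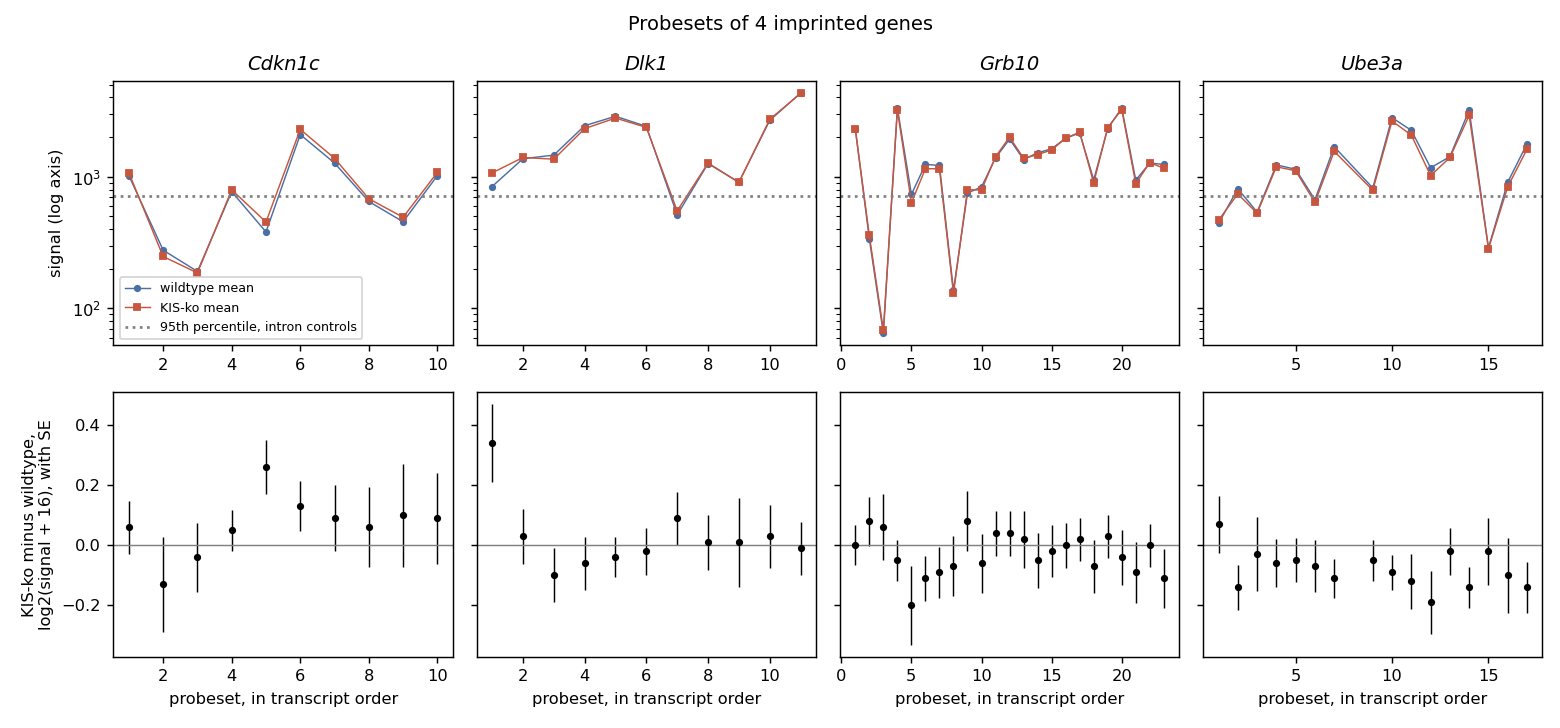
Probesets of Cdkn1c, Dlk1, Grb10 and Ube3a in transcript order (horizontal axis): mean signal of each genotype on a log axis with the 95th percentile of the intron controls dotted (top), and KIS-ko minus wildtype on the log2(signal + 16) scale with its standard error (bottom). The signal profiles of the genotypes lie on each other, and the first Dlk1 probeset, at 0.34, is the furthest from 0.

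Whether the imprinted genes rose and fell together from brain to brain was examined over the 12 arrays, after removing the mean of each genotype. Over the 28 pairs of genes the median r was 0.492, and 26 of 28 were positive. The arrays share litters and a common normalization, and the median of the whole array correlated with 6 of the 8 genes by r and with 3 by rho at an adjusted p under 0.05, with r up to 0.853 for Peg3 (rho 0.895, adjusted p = 0.00056 and 0.00168, permutation test over 12 arrays). For Dlk1 that r was 0.296 and rho 0.238 (adjusted p = 0.353 and 0.458). Without the 2 arrays of the most extreme medians, r for Peg3 was 0.748. The share of all genes that follow the array median was not computed, nor was r over pairs of other genes before centring. These counts therefore have no background over all genes. After each array was centred on its median, the median r between the imprinted genes was 0.095, with 17 positive and 11 negative pairs.

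One pair kept its correlation over the 12 arrays after centring. Cdkn1c, which stops division, and Grb10, which restrains growth factor signalling, correlated with r = 0.862 and rho = 0.888 over the 12 arrays (p = 0.0004 and 0.00027, adjusted over the 28 pairs 0.0112 and 0.00756, permutation test). With arrays centred, r was 0.857 and rho 0.916 (adjusted p = 0.0109 and 0.00392). Both genes were highest in the brains of litter 1, at 9.54 and 9.72 for Cdkn1c and 10.29 and 10.23 for Grb10. Both were near their lowest in the KIS-ko brain of litter 2, at 9.20 and 9.94.

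Within each genotype r was positive, with r = 0.841 and rho = 0.829 over the 6 wildtype brains (exact permutation p = 0.0333 and 0.0583) and r = 0.893 and rho = 0.943 over the 6 KIS-ko brains (p = 0.0139 and 0.0167). With arrays centred, the wildtype brains gave r = 0.693 and rho = 0.714 (exact permutation p = 0.124 and 0.136), and the KIS-ko brains r = 0.955 (p = 0.00556). Without the 2 brains farthest from the median of Cdkn1c, r over the KIS-ko brains was 0.616 as deposited and 0.925 centred. Over all arrays it was 0.792 without the 2 farthest. Without litter 1 it was 0.781 over 10 arrays, and the adjusted p was 0.213, so that no pair passed. Over the other litters left out, r lay between 0.828 and 0.903. Among 7245 other genes with a signal above the control limit, 22 correlated with Cdkn1c and 25 with Grb10 at least as strongly as the pair did (0.304% and 0.345%, arrays centred). The within-litter differences of the pair gave r = 0.735 over 6 litters (rho 0.771, exact permutation p = 0.0972 and 0.103). Without the 2 litters farthest from the median of Cdkn1c, that r was 0.438. It was then 0.223 with arrays centred and -0.255 after a further quantile normalization. The means of the littermates gave r = 0.924 over the 6 litters.

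**Figure D4:**
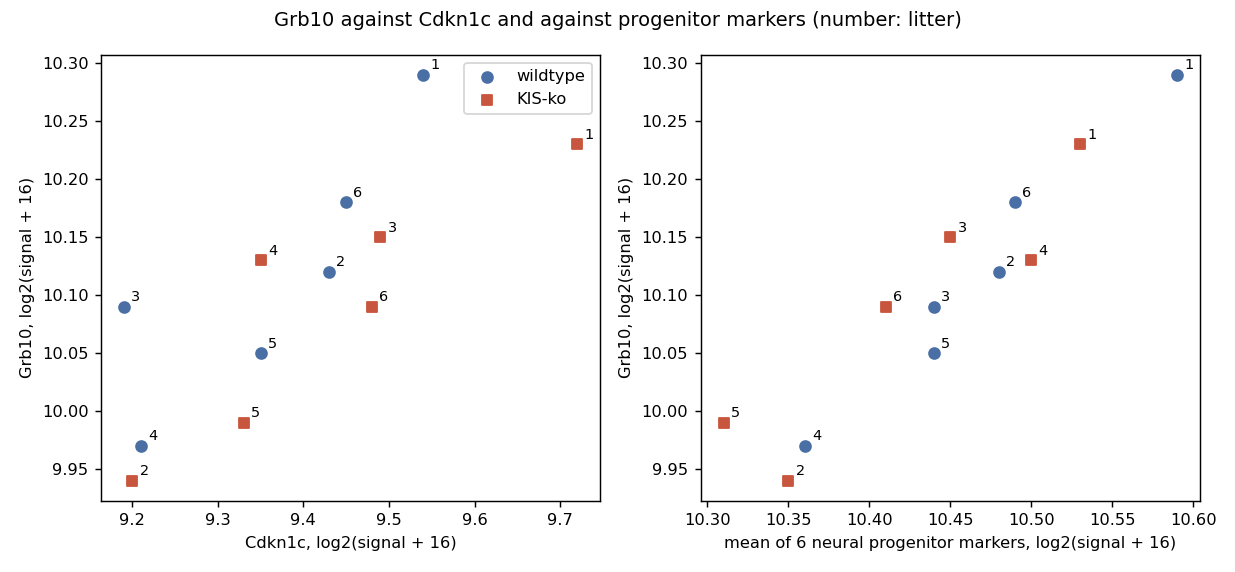
Grb10 (vertical axis) against Cdkn1c (left) and against the mean of 6 neural progenitor markers (right), all on the log2(signal + 16) scale, 1 point per brain with its litter number, circles for wildtype and squares for KIS-ko. The brains of litter 1 are at the upper right of both panels, and r is 0.862 on the left and 0.944 on the right once genotype means are removed.

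Marker levels of several cell types correlated with this pair, and with other imprinted genes too. Of 72 relations between 9 marker lists and the 8 genes, 20 had an adjusted p of r under 0.05 and 12 one of rho. How often other genes pass with the same lists was not tested. By r, 5 were for Grb10, 5 for Plagl1, 4 for Ube3a and 3 for Cdkn1c. With arrays centred 1 passed by r, that of progenitor markers with Grb10, and none by rho. The mean level of 6 neural progenitor markers (Sox2, Pax6, Eomes, Hes5, Nes and Fabp7, of which 4 were above the control limit) lay between 10.36 and 10.59 in wildtype and between 10.31 and 10.53 in KIS-ko brains. It correlated with Grb10 at r = 0.944 and rho = 0.937 (adjusted over 72 relations p = 0.00144 and 0.00288, permutation test over 12 arrays; 0.934 without the 2 extreme arrays). With arrays centred this r was 0.850 and rho 0.839 (adjusted p = 0.0374 and 0.0835). For Cdkn1c the same markers gave r = 0.770 and, centred, 0.746 (rho 0.804 and 0.734, adjusted p of r = 0.0243 and 0.199).

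The 8 markers of endothelium and pericytes, 4 of them above the limit, gave r = 0.863 with Grb10 and 0.743 with Cdkn1c, and 0.694 and 0.665 with arrays centred (rho 0.881, 0.811, 0.636 and 0.573). Of these, the values without centring had an adjusted p of 0.00979 and 0.0296, and those with centring 0.199 and 0.211 (permutation test). Choroid plexus markers, 7 in number with 2 above the limit, gave r = 0.824 with Grb10 and 0.725 with Cdkn1c (rho 0.776 and 0.699, adjusted p of r = 0.0143 and 0.0389, permutation test). With arrays centred they gave 0.587 and 0.628 (adjusted p = 0.229 and 0.214). Proliferation markers, of which 1 of 6 was above the limit, and neuron markers, 7 of 7, passed with Grb10 by r, at 0.769 and 0.705 (rho 0.811 and 0.727, adjusted p of r = 0.0243 and 0.0464). They gave 0.429 and 0.040 with arrays centred. The same lists had a higher r with Plagl1, at 0.862 and 0.845 (rho 0.762 and 0.664, adjusted p of r = 0.00979 for both, of rho = 0.0364 and 0.0752). With Ube3a they gave 0.811 and 0.793 (rho 0.825 and 0.720, adjusted p of r = 0.0166 and 0.0176, of rho = 0.0226 and 0.0526). With arrays centred r was 0.598 and 0.636 for Plagl1 (adjusted p = 0.214 for both) and 0.388 and 0.308 for Ube3a (adjusted p = 0.589 and 0.648, permutation test). With Plagl1, progenitor markers gave r = 0.843 and meningeal ones 0.805 (rho 0.783 and 0.685, adjusted p of r = 0.00979 and 0.0176, of rho = 0.0303 and 0.0682). Centred, these were r = 0.689 and 0.694 (adjusted p = 0.199 for both, permutation test). The mean level of the endothelial and pericyte markers ran from 9.31 to 9.62 in wildtype and from 9.34 to 9.55 in KIS-ko brains. The part of cell composition in the correlation of Cdkn1c with Grb10 was not tested.

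The next pairs had a lower r with arrays centred. Magel2 and Plagl1 had r = 0.743 (rho 0.671, adjusted p = 0.0667 and 0.0993, permutation test over 12 arrays), which was 0.457 without 2 arrays and 0.492 with arrays centred. Plagl1 and Grb10 had r = 0.728 (rho 0.657, adjusted p = 0.0667 and 0.0993) and 0.432 after centring. Before centring, r was 0.552 without 2 arrays, and 0.878 without litter 2, where this was the highest pair. At the other end, Magel2 and Dlk1 had r = -0.018 and rho = -0.049, and Peg3 and Dlk1 r = -0.015 and rho = 0.084 (adjusted p of r 0.963 for both). Peg3 and Ube3a passed by rank only, with rho = 0.811 (adjusted p = 0.0304) and r = 0.685 (adjusted p = 0.075), and lost this after centring, where r was 0.048. Before centring, this was the highest pair without litter 5, at r = 0.895.

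The neighbours on chromosome 7 did not stand out. Ndn and Magel2, whose promoters are printed above, had r = 0.313 and rho = 0.217 (adjusted p = 0.427 and 0.536, permutation test over 12 arrays), and r = -0.187 with arrays centred. Ndn and Ube3a had r = 0.638 and rho = 0.615 (adjusted p = 0.105 and 0.130), and 0.304 after centring. Magel2 and Ube3a had r = 0.439 and rho = 0.406 (adjusted p = 0.255 and 0.272), and -0.084 after centring.

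Within-litter differences also gave mostly positive r before centring, and pairs of other genes were not examined in this way. Over the 6 litters 27 of 28 pairs had a positive r with a median of 0.603, 4 had an unadjusted p under 0.05 and none an adjusted one (exact permutation test). The highest was Ndn with Grb10 at r = 0.961 (rho 0.829, p = 0.00694 and 0.0583, adjusted p = 0.0972 and 0.476, exact permutation test over 6 litters). Without litter 4, in which all 8 genes were higher in KIS-ko, the median r was 0.246. With arrays centred the median r was 0.050, with 15 of 28 positive. Ndn with Grb10 then had r = 0.866 (adjusted p = 0.531, exact permutation test), and 0.848 after a further quantile normalization. Over the 12 arrays, r of this pair was 0.544, and 0.100 with arrays centred.

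**Figure D5:**
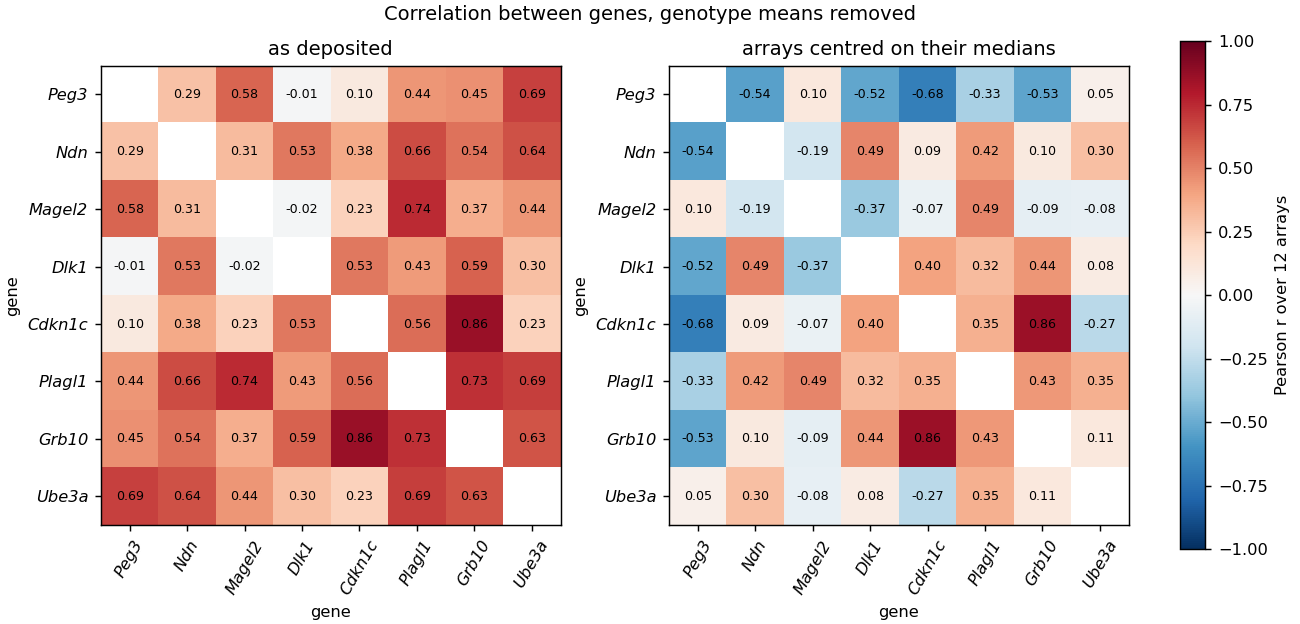
Pearson r between the 8 imprinted genes over the 12 arrays after removal of genotype means, from the values as deposited (left) and after centring each array on its median (right), with blue for negative and red for positive values. Most of the red on the left is lost on the right, where Cdkn1c with Grb10 keeps 0.86 and Peg3 is negative with 5 of the other genes.

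For each imprinted gene, the pair of genes that followed it best was sought among 7247 genes with a signal above the control limit, with arrays centred and genotype means removed. These are the extremes of many correlations and are descriptions. Cdkn1c was followed by Mfge8 (r = 0.963) and Itgb5 (0.946), and Grb10 by Rcn3 (0.949) and Cdk6 (0.943). Dlk1 was followed by Srebf1 (0.940) and Wnt7b (0.905), and Plagl1 by Tlk2 (0.928) and Psip1 (0.886). For Peg3 these were Cacna1d (0.931) and Ptpra (0.921), and for Ndn Wdr74 (0.931) and Mcart1 (0.927). Magel2 had Sfrs7 (0.871) and Rps28 (0.846), and Ube3a had Pcdhga8 (0.898) and Ubxn4 (0.857). None of these was another of the 8 imprinted genes. An r above 0.7 was reached by 0.676% of the genes for Magel2 and by up to 7.74% for Ndn.

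Other imprinted genes gave a similar picture. Of 58 listed, 46 were measured, and 37 were lower and 9 higher in KIS-ko, with a median of -0.05, against the 69.8% of all genes that were lower. None passed the adjusted threshold (limma, lowest adjusted p = 0.685). An unadjusted p under 0.05 was reached by 3 of 46, near the 6.16% of all genes, and the 3 were lower in KIS-ko in 5 of 6 litters. Impact, a regulator of the translational stress response, ran from 9.99 to 10.18 in wildtype and from 9.84 to 10.16 in KIS-ko brains (-0.14, SE 0.0623). Mcts2, a retrogene inside H13, ran from 8.32 to 8.65 and from 8.20 to 8.54 (-0.13, SE 0.0549), with a median probeset signal of 511, below the control limit. Slc22a2, an organic cation transporter, ran from 7.95 to 8.16 and from 7.71 to 8.11 (-0.14, SE 0.0543), with a median probeset signal of 267, also below it.

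Among the other imprinted genes whose mean signal over probesets exceeded the control limit, the largest remaining differences were these. Rasgrf1, an exchange factor for Ras, differed by -0.14 (SE 0.0649), Casd1, a sialic acid acetyltransferase, by -0.11 (SE 0.0575), and Sgce, the epsilon-sarcoglycan, by -0.08 (SE 0.0615). Peg12 differed by 0.11 (SE 0.078) and was the only one of these above 0. The mean signals of Rasgrf1 and Peg12, 850 and 748, were above the limit, but their median probeset signals, 688 and 524, were not. All had an adjusted p of 0.685 to 0.690 (limma), and the groups overlapped in each. Of the other genes listed as paternally expressed, 14 of 17 were lower in KIS-ko, and of those listed as maternally expressed 18 of 24, with medians of -0.07 and -0.05. The 5 genes listed as expressed from both or by isoform were all lower, with a median of -0.11. The lists name no tissue, and the copy used in these brains was not measured. Over all genes 69.8% were lower, with a median of -0.04, and the difference between these classes was not tested.

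The measure that the methods define, the mean of the 6 ratios of KIS-ko over wildtype weighted over probesets, gave folds between 0.950 ± 0.0743 for Ube3a and 1.08 ± 0.0949 for Cdkn1c (SD over 6 pairs). Peg3 was at 0.986 ± 0.0424, Ndn at 0.980 ± 0.103, Magel2 at 0.971 ± 0.136 and Grb10 at 0.996 ± 0.0784. Dlk1 was at 1.02 ± 0.0976 and Plagl1 at 1.02 ± 0.0661. Each of these was within 1 SD of an unchanged level.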

How the data were processed

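Exon-level quantile normalization and PLIER, both run by the authors in Affymetrix Expression Console, gave the deposited intensity, a linear signal per probeset. The build of its positions and the software versions are not given in the sources used here. Main probesets with a symbol were used, except those whose SD exceeded 0.4 of the mean in wildtype or in KIS-ko brains, a limit set by the study's methods, which left 205469. The value of a gene was the mean of log2(signal + 16), and levels were not compared between genes.

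Tests over all genes or probesets used limma (3.58.1, R 4.3.3) with a litter block, and p-values were adjusted by Benjamini-Hochberg, at a threshold of 0.05. The pairing comes from the litter labels. Correlations were tested with 100000 permutations over arrays, which ignore the shared litters, or all permutations over litters, computed with scipy 1.17.1, numpy 2.4.6 and pandas 2.3.3 under Python 3.11.15. Figures were drawn with matplotlib 3.10.9. The fit was tested on simulated data first. The genes and lists were chosen with earlier results of these data known. Lists were other imprinted genes and markers of neurons, progenitors, proliferation, meninges, choroid plexus, endothelium and pericytes, hypothalamus, pituitary and erythroid cells, and the relations of markers with the genes were added after the data were seen.

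The text names the imprinted genes of the rule, Uhmk1, other imprinted genes with an unadjusted p under 0.05 or among the 5 largest differences with a mean signal above the control limit, the 2 most similar genes of each, the 3 highest and 2 lowest pairs and those among Ndn, Magel2 and Ube3a. Peg3 with Ube3a and Ndn with Grb10 were chosen after their values were seen. Alternatives were no block, pseudocounts of 1 and 64, other filters on variable, dim and cross-matching probesets, the median over probesets, arrays centred or quantile-normalized again, trend and robust moderation, the ratio of group means, the methods' t-test and each litter left out.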

Additional observations from a re-analysis of the deposited data

Results flagged for a closer look

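The wildtype brain of litter 5 had a Peg3 value of 11.72, well under the next lowest wildtype brain at 11.85, a gap of 0.699 of the whole range of the 6 wildtype brains. Its KIS-ko littermate was also at 11.72. Of groups of this size, chance marks about 1 in 20, and 16 groups were examined.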

How the results depend on the processing

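No imprinted gene or probeset passed the adjusted threshold, for genotype or for litter, under any alternative in which it was tested, including the fit without the litter block (0 genes, median difference -0.03). The median difference lay between -0.06 and 0.00 over the litters left out, at 0.03 with arrays centred on their medians and at 0.00 after a further quantile normalization. The number of genes lower in KIS-ko was 2 and 4 under these last 2 settings and 3 without litter 2, against 6. Peg3, Ndn, Dlk1, Plagl1 and Grb10 changed sign under some settings, and Magel2 and Ube3a stayed below 0 and Cdkn1c above 0 throughout. The median fold of the methods was 0.991, and lay between 0.967 and 1.03 under its alternatives. The number of pairs with r past the adjusted threshold was 1 (2 by rho, and 0 to 5 by rho with litters left out), and lay between 0 and 4 with litters left out. It was 0 without litter 1, 4 without litter 2, 3 without litter 3 and 4 without litter 5, and the cause was not tested. By r it stayed at 1 under the other alternatives. Array number and signal over background limit the precision: of the probesets kept, 86 of 105 had a mean signal above the control limit.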
